A study of Homo sapiens with 14 samples.

Results

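Ribosome profiling (Ribo) was compared between 2 libraries of early pancreatic progenitors (PP1) and 3 libraries of late pancreatic progenitors (PP2), both made from the human embryonic stem cell line HUES8. These were 5 of the 14 libraries in the series, and every gene with enough counts was tested, which left 15067 of 59050 gene symbols. The series followed wild-type HUES8 cells through definitive endoderm (DE), PP1 and PP2, and at each stage it also sequenced total RNA (RNA). All groups shared the line and the wild-type genotype. The sources used here give neither the agents, days and culture format of the differentiation nor the origin of the replicates, which may or may not be separate differentiations. The p-values below thus speak only to how far these libraries differ from each other, and that difference may be technical. Cells were measured in bulk, so that fewer cells of a type and less RNA per cell cannot be told apart.

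Ribosome profiling sequences the short RNA fragments that ribosomes protect from nuclease, so a count for a messenger RNA rises with the number of ribosomes on it. Pancreatic progenitors come from foregut endoderm under signals that include retinoic acid, Notch and WNT. PDX1 and SOX9 mark the early progenitor, NKX6-1 the later one from which insulin cells can be made, and NEUROG3 opens the endocrine path. The neighbouring foregut gives rise to liver, and plasma protein genes of the liver are often found beside pancreatic genes in such cultures.

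The 5 libraries differed in composition before any gene was compared. MT-RNR2, the large mitochondrial ribosomal RNA, took 60.8% and 57.7% of all counts in PP1 replicates 1 and 2. It took 1.65%, 44.6% and 11.0% in PP2 replicates 1, 2 and 3, with 95% Wilson half-widths of at most 0.0446 percentage points that cover counting error only. Nuclear protein-coding genes held 28.1% and 30.7% of PP1 counts, and 94.8%, 43.8% and 79.6% of PP2 counts. Total counts were 5515246 and 4710335 in PP1, and 24186949, 7197910 and 10263760 in PP2. The RNA libraries of PP1 and PP2 held 16228393 to 21009065 counts. PP2 replicate 2 of Ribo stood nearest to PP1 in composition and depth, and PP2 replicate 1 stood farthest. Values below are CPM, counts scaled to a common library size by trimmed mean of M-values (TMM), a method that assumes no net change in most genes. Library values are listed in the order PP1 replicates 1 and 2, then PP2 replicates 1, 2 and 3.

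**Figure D1:**
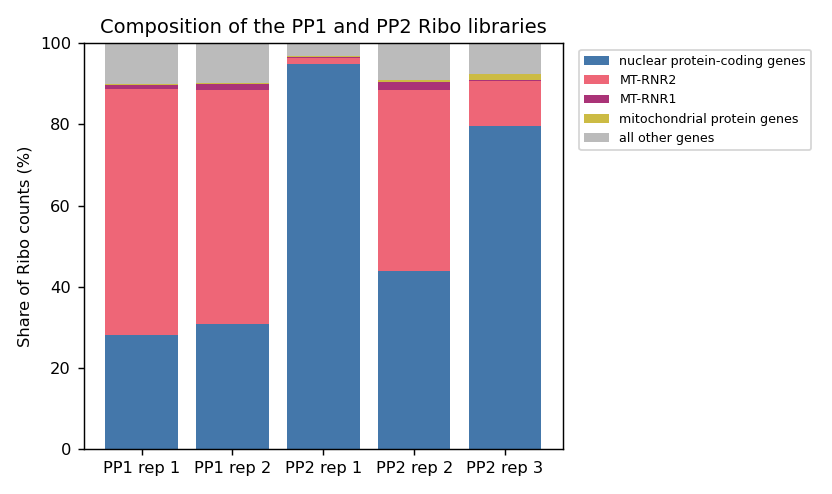
Stacked bars show the share of all Ribo counts (%) in each PP1 and PP2 library (rep, replicate) held by nuclear protein-coding genes, MT-RNR2, MT-RNR1, mitochondrial protein genes and all other genes. MT-RNR2 takes 60.8% and 57.7% in PP1 and 44.6% in PP2 replicate 2, but 1.65% and 11.0% in PP2 replicates 1 and 3.

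From PP1 to PP2, 755 genes passed edgeR's quasi-likelihood test at an adjusted p under 0.05, which was 5.01% of those tested. Of these, 325 (2.16%) were higher and 430 (2.85%) were lower in PP2. Counts of list members below stand beside these shares and a median log2 of 0.04 over all tested genes. Among 13023 protein-coding genes, 321 (2.46%) were higher and 326 (2.5%) were lower. The number of genes that passed depended on single libraries. It was 58 without PP1 replicate 1, 93 without PP1 replicate 2, 197 without PP2 replicate 3 and 3474 without PP2 replicate 2. With PP2 replicate 2 as the only PP2 library, 269 genes were higher and 500 lower, and 441 of the 755 calls were kept.

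**Figure D2:**
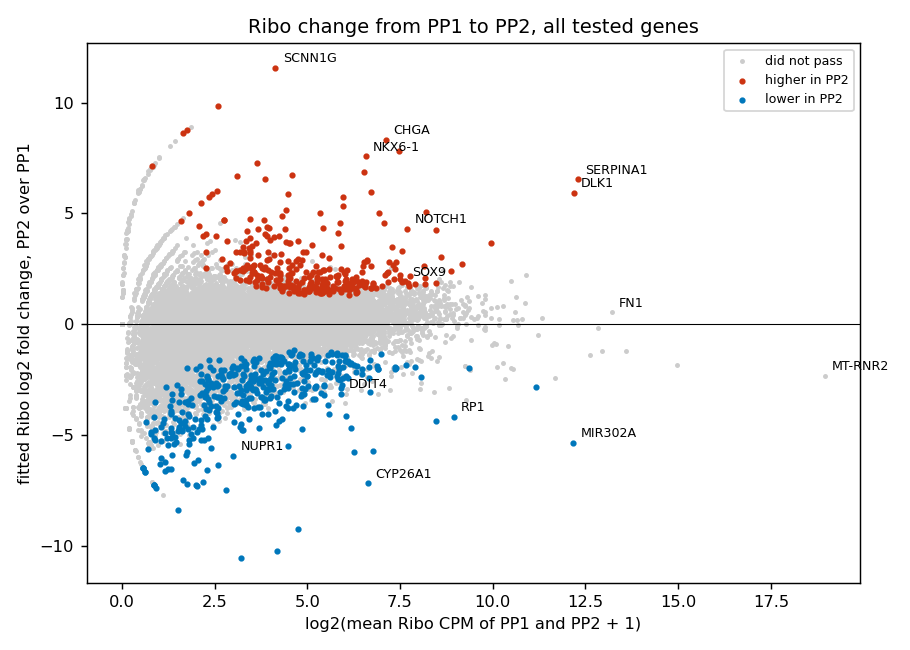
Each point is 1 of 15067 tested genes, with log2(mean Ribo CPM of PP1 and PP2 + 1) on the horizontal axis and the fitted Ribo log2 fold change of PP2 over PP1 on the vertical axis. The 325 genes that passed as higher are red and the 430 that passed as lower are blue; NKX6-1 and CHGA lie far above 0 and CYP26A1 far below.

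Progenitor transcription factors separated the stages through a few members. NKX6-1 (chr4:84491985-84499292 in RefSeq's GRCh38.p14, as are all positions here) had 0.807 and 1.16 CPM in PP1 and 190, 240 and 134 CPM in PP2. Every PP2 library lay more than 100 CPM above both PP1 libraries. The fitted log2 fold change was 7.57 ± 0.56 (SE; 2 against 3 libraries), with an edgeR adjusted p of 0.000236. PDX1, the factor that specifies the pancreas, rose from 20.7 and 17.7 to 83.9, 67.4 and 60.5 CPM (log2 1.88 ± 0.35, edgeR adjusted p = 0.0174). SOX9, which maintains the progenitor pool, rose from 79.1 and 83.9 to 385, 291 and 258 CPM (1.93 ± 0.43, adjusted p = 0.0287). MEIS1, a homeobox partner of HOX and PBX proteins, rose from 37.1 and 40.1 to 106, 154 and 97.1 CPM (1.62 ± 0.38, adjusted p = 0.0353). In none of these 4 genes did the PP1 and PP2 libraries overlap, nor in any of the 321 protein-coding genes that passed as higher. Of all tested genes, 21.1% had every PP2 library above both PP1 libraries. In NKX6-1 and MEIS1 replicate 2 was the highest PP2 library.

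ONECUT2, a foregut and liver factor, moved the other way, from 221 and 162 CPM to 25.8, 64.3 and 54 CPM (log2 -2.0 ± 0.41, edgeR adjusted p = 0.0228). PTF1A, needed for the acinar lineage, had 1.61 and 0 CPM in PP1 and 6.33, 14.2 and 5.13 CPM in PP2, and did not pass (adjusted p = 0.0963). The endoderm factors FOXA2 and GATA4 were present at each stage. Their log2 differences were -0.37 ± 0.37 for FOXA2 and -0.31 ± 0.36 for GATA4, and neither passed. Over the list, 22 of 25 factors were tested, 4 rose, 1 fell, and the median log2 was -0.14. Over all tested genes, 2.16% rose, 2.85% fell, and the median was 0.04. Of the 5 calls, only that of NKX6-1 held under each of the 7 omissions of 1 Ribo library. The calls of PDX1, SOX9, MEIS1 and ONECUT2 were lost without either PP1 library or PP2 replicate 3. SOX9 and MEIS1 lost theirs also without either DE library. Over the 7 omissions the fitted log2 ranged from 1.73 to 2.06 for PDX1 and from 1.75 to 2.05 for SOX9. For MEIS1 it ranged from 1.42 to 1.75, and for ONECUT2 from -2.25 to -1.70. Omitting a PP1 library left only 1, so a lost call alone does not show a changed fold.

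CPA1, a pancreatic carboxypeptidase that marks multipotent progenitors and acinar cells, rose from 1.61 and 0.29 CPM to 34.8, 20.3 and 21.2 CPM (log2 4.70 ± 0.90, edgeR adjusted p = 0.0172). It was below 2 CPM in each PP1 library and above 20 CPM in each PP2 library. The call was lost without either PP1 library or PP2 replicate 3 (highest adjusted p 0.142).

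Among endocrine genes, CHGA, SCG2, SST, GHRL and PCSK1N rose. CHGA, the granule protein chromogranin A, had 0.538 and 1.16 CPM in PP1 and 363, 132 and 325 CPM in PP2 (log2 8.33 ± 0.82, edgeR adjusted p = 0.00104). SCG2, a second granin, rose from 0.269 and 1.16 CPM to 49.5, 15.9 and 59.5 CPM (5.87 ± 0.83, adjusted p = 0.00617). PP2 replicate 2 held the least of both granins among PP2 libraries, yet far more than either PP1 library. SST, the hormone somatostatin, had no count in PP1 and 10.2, 8.54 and 11.3 CPM in PP2, at least 24.4-, 20.4- and 27.1-fold higher when PP1 is set to 3 counts over its 2 libraries (adjusted p = 0.00848). GHRL, the hormone ghrelin, had 0.538 and 0.29 CPM in PP1 and 9.43, 4.66 and 5.85 CPM in PP2. Its 3 counts in PP1 and 488 in PP2 gave a pooled ratio of rates of 19.1, in which PP2 replicate 1 weighs most. The exact 95% counting interval was 6.5 to 93 (edgeR adjusted p = 0.0383). PCSK1N, an inhibitor of prohormone convertase 1, rose from 1.08 and 2.03 CPM to 14.4, 11.1 and 18.4 CPM (3.24 ± 0.58, adjusted p = 0.013).

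RFX6, a transcription factor of gut endoderm and of islet cells, fell while these genes rose. It had 48.7 and 54.6 CPM in PP1 and 10.2, 11.7 and 9.25 CPM in PP2 (log2 -2.32 ± 0.36, edgeR adjusted p = 0.00758), and the 3 PP2 libraries lay close together. NEUROG3 was not tested because of low counts, which were 4 and 0 in PP1 and 78, 3 and 12 in PP2. INS, the insulin gene, had no count in PP1 and 8, 1 and 0 counts in PP2, and GCG, the glucagon gene, had 8, 2 and 10 counts in PP2. Over the list, 20 of 30 genes were tested, 5 rose, 1 fell, and the median log2 was 1.77. Among all tested genes, 2.16% rose and 2.85% fell, with a median of 0.04. The medians in PP2 replicates 1, 2 and 3 over PP1 were 0.99, 0.71 and 0.89 on the log2(CPM + 1) scale, which understates changes of low genes. CHGA alone kept its call in every omission of 1 library. SCG2 lost it without PP1 replicate 1, RFX6 without either PP1 library, and SST, GHRL and PCSK1N without either PP1 library or PP2 replicate 3, GHRL also without PP2 replicate 1, with a highest adjusted p of 0.256.

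**Figure D3:**
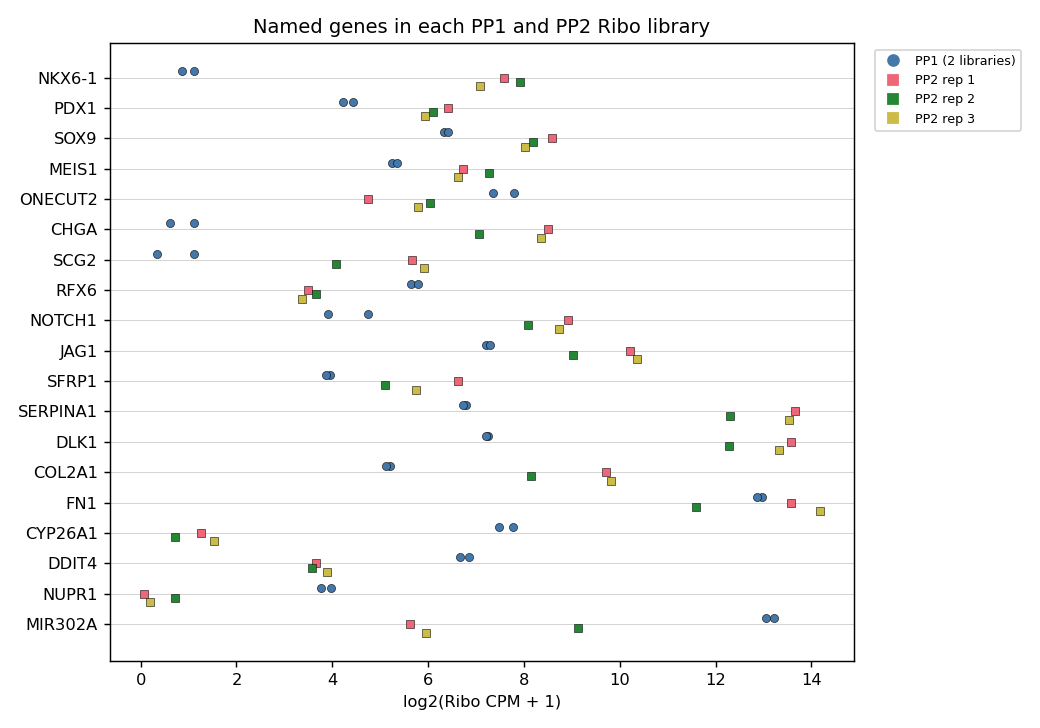
Each row is 1 gene and each mark 1 Ribo library, placed by log2(CPM + 1): circles are the 2 PP1 libraries and squares the 3 PP2 libraries, coloured by replicate. NKX6-1 sits at 190, 240 and 134 CPM in PP2 against 0.807 and 1.16 CPM in PP1, whereas in FN1 the PP2 libraries lie on either side of PP1.

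Retinoic acid is made by ALDH1A enzymes, cleared by CYP26 enzymes and read by nuclear receptors. The clearing enzymes CYP26A1 and CYP26B1 fell, and CYP26C1 was too low to test. CYP26A1 (chr10:93073475-93077885) had 217 and 177 CPM in PP1 and 1.4, 0.647 and 1.88 CPM in PP2, with no PP2 library above 2 CPM. Its log2 fold change was -7.17 ± 0.53 (edgeR adjusted p = 0.000236). CYP26B1 fell from 33.4 and 36.6 CPM to 7.34, 3.75 and 2.53 CPM (-2.92 ± 0.47, adjusted p = 0.00861). The synthetic enzyme ALDH1A3 was low throughout, at 2.42 and 1.74 CPM in PP1 and 0.102, 0 and 0.0722 CPM in PP2 (-4.61 ± 0.92, adjusted p = 0.0197). NR2F1, an orphan nuclear receptor, rose from 7.53 and 2.32 CPM to 21.6, 36.2 and 29.4 CPM (2.55 ± 0.59, adjusted p = 0.034). RARB, a receptor that is itself a target of retinoic acid, had 17.8 and 15.4 CPM in PP1 and 28.3, 33.4 and 19.1 CPM in PP2 and did not pass (0.70 ± 0.43, adjusted p = 0.374).

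Of the 21 pathway genes tested of 22, 1 rose and 3 fell, with a median log2 of -0.17. The shares over all tested genes were 2.16% and 2.85%, with a median of 0.04. In RNA, 3 of 22 rose and 9 fell, with a median of -1.13, beside 7.8% and 10.6% of all genes tested there. CYP26A1 kept its Ribo call in every omission of 1 library. The calls of CYP26B1, NR2F1 and ALDH1A3 were lost without either PP1 library, the latter pair also without PP2 replicate 3, and ALDH1A3 without DE replicate 2, with a highest adjusted p of 0.242.

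Notch signalling passes between neighbouring cells from a membrane ligand to a NOTCH receptor, whose cleaved tail switches on HES and HEY genes with RBPJ. The ligand JAG1 had 146 and 156 CPM in PP1 and 1191, 518 and 1317 CPM in PP2 (log2 2.74 ± 0.55, edgeR adjusted p = 0.02). The ligand DLL1 rose from 44.7 and 27.3 CPM to 129, 99.4 and 105 CPM (1.62 ± 0.36, adjusted p = 0.0287). The receptor NOTCH1 rose from 25.8 and 13.9 CPM to 480, 272 and 427 CPM (4.30 ± 0.51, adjusted p = 0.00198). For each of the 3 genes the lowest PP2 library was replicate 2. It lay above both PP1 libraries, as the lowest PP2 library did in all 321 protein-coding genes that passed as higher.

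The other receptors NOTCH2 and NOTCH3 did not pass, at log2 1.59 ± 0.43 (edgeR adjusted p = 0.0577) and 1.14 ± 0.42 (adjusted p = 0.138). Nor did the target genes HEY1 (1.77 ± 0.52, adjusted p = 0.0759) and HES1 (0.37 ± 0.38, adjusted p = 0.604), HES1 being at 78.6 and 52.3 CPM in PP1 and 91.5, 92.4 and 70.4 CPM in PP2. Over the list, 18 of 21 genes were tested, 3 rose, none fell, and the median log2 was 0.62. Among all tested genes, 2.16% rose and 2.85% fell, with a median of 0.04. NOTCH1 lost its call only without PP1 replicate 2 (adjusted p = 0.0524), while JAG1 and DLL1 lost theirs without either PP1 library, DE replicate 1 or PP2 replicate 3, and DLL1 also without DE replicate 2 (highest adjusted p 0.317).

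WNT feedback was represented by secreted antagonists and a receptor. SFRP5, a secreted WNT-binding protein, rose from 25 and 32.5 CPM to 172, 80.9 and 184 CPM (log2 2.34 ± 0.47, edgeR adjusted p = 0.0197). FRZB, of the same family, rose from 49.8 and 43.8 CPM to 320, 142 and 245 CPM (2.33 ± 0.46, adjusted p = 0.0189), and SFRP1 rose by 2.12 ± 0.49 (adjusted p = 0.0339). LGR4, an R-spondin receptor that amplifies WNT signals, rose from 40.9 and 39.2 CPM to 200, 122 and 127 CPM (1.91 ± 0.39, adjusted p = 0.0224). TCF7, a WNT-responsive transcription factor, had 15.3 and 17.1 CPM in PP1 and 5.11, 5.95 and 6 CPM in PP2 and did not pass (-1.52 ± 0.43, adjusted p = 0.0653). In all, 16 of 20 genes were tested, 4 rose and none fell, with a median of 0.42. The shares over all tested genes were 2.16% and 2.85%, with a median of 0.04. Each of the 4 calls was lost without either PP1 library or PP2 replicate 3, and that of SFRP1 also without either DE library (highest adjusted p 0.289).

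Plasma protein genes of the hepatic lineage did not move as 1 group. SERPINA1 (chr14:94376747-94390635), which encodes alpha-1-antitrypsin, had 109 and 105 CPM in PP1 and 12892, 5076 and 11807 CPM in PP2. By mean CPM over the 3 PP2 Ribo libraries it was the fourth most abundant gene, and its log2 fold change was 6.54 ± 1.01 (edgeR adjusted p = 0.00732). The apolipoprotein gene APOA2 fell from 1011 and 1088 CPM to 296, 133 and 366 CPM (-1.99 ± 0.48, adjusted p = 0.0414). FABP1, the liver fatty acid binding protein, fell from 19.4 and 32.2 CPM to 5.82, 4.01 and 4.33 CPM (-2.43 ± 0.39, adjusted p = 0.00857). AFP had 9221 and 9093 CPM in PP1 and 3877, 1430 and 5293 CPM in PP2, and ALB 15.9 and 22.1 CPM in PP1 and 26.5, 15.7 and 44.6 CPM in PP2, and neither passed. Of 24 genes, 21 were tested, 1 rose and 2 fell, beside 2.16% and 2.85% of all tested genes. Replicate 2 was the lowest PP2 library in 21 of the 21 genes, against 44.1% of all tested protein-coding genes. List medians over PP1 were -0.46, -1.16 and 0.19 in PP2 replicates 1, 2 and 3. The part that library composition plays in these values was not tested. SERPINA1, APOA2 and FABP1 lost their calls without either PP1 library, and APOA2 also without either DE library or PP2 replicate 3 (highest adjusted p 0.273).

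DLK1, a membrane protein related to Notch ligands and a marker of embryonic liver and pancreas, followed SERPINA1 in abundance. It had 151 and 147 CPM in PP1 and 12127, 5003 and 10202 CPM in PP2 (log2 5.93 ± 0.93, edgeR adjusted p = 0.00769). The call was lost without either PP1 library (highest adjusted p 0.18).

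Among the 15 largest rises of abundant protein-coding genes were several membrane and matrix proteins. SCNN1G, the gamma subunit of the epithelial sodium channel, had no count in PP1 and 49, 19.7 and 31.1 CPM in PP2, at least 117-, 47.0- and 74.1-fold higher in the 3 PP2 libraries with PP1 set to 3 counts over its 2 libraries (edgeR adjusted p = 0.00163). The alpha subunit gene SCNN1A went the other way, from 11.6 and 6.97 CPM to 2.77, 2.07 and 1.81 CPM (log2 -2.04 ± 0.44, adjusted p = 0.0275). SLC4A4, a sodium bicarbonate cotransporter of pancreatic duct cells, rose from 22.1 and 11.9 CPM to 709, 347 and 662 CPM (5.07 ± 0.58, adjusted p = 0.00181), and ANO1, a calcium-gated chloride channel, fell from 12.4 and 9 CPM to 1.37, 2.07 and 1.23 CPM (-2.79 ± 0.62, adjusted p = 0.0293). Of the 20 epithelial channel and transporter genes tested of 24, these 2 rose and these 2 fell. The shares over all tested genes were 2.16% and 2.85%. SCNN1G and SLC4A4 kept their calls in every omission of 1 library, whereas SCNN1A and ANO1 lost theirs without either PP1 library or PP2 replicate 3, and SCNN1A also without DE replicate 1 (highest adjusted p 0.365).

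TTYH1, a membrane protein of neural and stem cells, rose from 1.88 and 1.16 CPM to 231, 144 and 163 CPM (log2 6.86 ± 0.59, edgeR adjusted p = 0.00058). UNC5C, a netrin receptor, rose from 5.65 and 0.871 CPM to 328, 104 and 180 CPM (5.95 ± 0.83, adjusted p = 0.00451). COL21A1, a collagen gene, rose from 3.23 and 1.16 CPM to 154, 79.7 and 124 CPM (5.75 ± 0.57, adjusted p = 0.00104). In all 3 the PP2 libraries kept the order of replicates 1, 3 and 2 from high to low. BGN, a matrix proteoglycan gene, had 0.269 and 0 CPM in PP1 and 21.5, 5.44 and 18.5 CPM in PP2, and NXPH2, a neurexophilin gene, had 0.269 and 0.29 CPM in PP1 and 31.5, 19.9 and 29.5 CPM in PP2. Both had 1 to 3 counts over the PP1 libraries, and their pooled ratios of rates, in which PP2 replicate 1 weighs most, were 134 and 106. The exact 95% counting intervals were 24.1 to 5311 for BGN and 29.3 to 875 for NXPH2. Of these 5 genes, BGN alone lost its call in an omission of 1 library, that of either PP1 library or PP2 replicate 3 (highest adjusted p 0.0926), and its fitted log2 ranged from 5.85 to 10.6 over the 7 omissions.

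Genes of the integrated stress response formed the list with the most falls. This response is set off by amino acid shortage or unfolded protein, acts through the factor ATF4 and switches on genes of amino acid supply and growth arrest. Of 29 genes, all tested, 9 fell and none rose, beside the background of 2.85% lower, and the list's median log2 was -1.12 against 0.04. DDIT4, an inhibitor of the growth kinase mTORC1, had 99.8 and 114 CPM in PP1 and 11.6, 11 and 13.9 CPM in PP2 (log2 -3.13 ± 0.31, edgeR adjusted p = 0.00104). TRIB3, a pseudokinase that restrains ATF4, fell from 39.3 and 37.5 CPM to 5.62, 3.24 and 8.52 CPM (-2.71 ± 0.53, adjusted p = 0.0178). NUPR1, a small stress-induced nuclear protein, fell from 12.6 and 14.8 CPM to 0.0508, 0.647 and 0.144 CPM (-5.93 ± 1.03, adjusted p = 0.0113). The PP2 libraries of all 3 genes stayed below every PP1 library. So did those of all 326 protein-coding genes that passed as lower, and of 21.6% of all tested genes.

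The other members that fell were ASNS (-4.84) and CTH (-2.06), enzymes of asparagine and cysteine synthesis, CHAC1 (-2.02), which degrades glutathione, the transcription factor CEBPB (-2.16), the secreted stress factor GDF15 (-2.45) and SESN2 (-1.72), an amino acid sensor. ATF4 itself had 262 and 349 CPM in PP1 and 145, 157 and 83.4 CPM in PP2 and did not pass (-1.25 ± 0.40, edgeR adjusted p = 0.0943). DDIT3, a factor that promotes cell death under this stress, had 97.7 and 81.9 CPM in PP1 and 3.02, 18.4 and 34.9 CPM in PP2 and did not pass (adjusted p = 0.0848). List medians in PP2 replicates 1, 2 and 3 over PP1 were -1.42, -1.64 and -0.55. In the RNA libraries, 20 of the 29 genes fell and none rose, beside 10.6% lower and 7.8% higher of all genes tested there. DDIT4 alone kept its Ribo call in every omission of 1 library. The other 8 lost it without either PP1 library, and NUPR1, GDF15, CTH, SESN2 and ASNS also without PP2 replicate 3. ASNS lost it without either DE library or PP2 replicate 1 as well, with a highest adjusted p of 0.507.

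Lists next to it in function were counted in the same way. Among 23 cytosolic aminoacyl-tRNA synthetases, which load transfer RNAs, WARS fell (138 and 173 to 57.2, 33.7 and 59.9 CPM, log2 -1.63 ± 0.35, edgeR adjusted p = 0.0268) and 22 did not pass. Among 25 folding genes of the endoplasmic reticulum, HERPUD1 (-1.66 ± 0.36, adjusted p = 0.0268) and SDF2L1 (-1.36 ± 0.34, adjusted p = 0.0459) fell and none rose, with a median of 0.06. Of all genes tested in Ribo, 2.85% fell, and the median was 0.04. The RNA libraries of the same 25 folding genes had a median of -1.35, and 14 of them fell, beside 10.6% of all genes tested there. HSPA5, the main chaperone of the compartment, had 864 and 820 CPM in PP1 Ribo and 725, 268 and 561 CPM in PP2 Ribo (-0.70 ± 0.49, adjusted p = 0.435), beside an RNA change of -2.76 (adjusted p = 0.00714). The test of that difference did not pass for HSPA5 (edgeR adjusted p = 0.337). WARS, HERPUD1 and SDF2L1 each lost the Ribo call without either PP1 library or PP2 replicate 3, and WARS and SDF2L1 also without either DE library (highest adjusted p 0.324).

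The PP2 libraries disagreed in matrix and secretory pathway genes. COL2A1, the collagen of cartilage and of early epithelia, rose from 36.1 and 34 CPM to 841, 282 and 895 CPM (log2 4.26 ± 0.62, edgeR adjusted p = 0.00557), and NID1, a basement membrane protein, rose from 84.5 and 95.5 CPM to 437, 175 and 371 CPM (1.86 ± 0.46, adjusted p = 0.0429). FN1, fibronectin, had 7993 and 7432 CPM in PP1 and 12138, 3086 and 18544 CPM in PP2. Its PP2 libraries lay on either side of PP1, and the fitted difference was 0.55 ± 0.91 (adjusted p = 0.771). With PP2 replicate 2 as the only PP2 library the difference was -1.32, a fit that holds no spread within PP2. The difference was -0.02 without PP2 replicate 3. Over 33 matrix genes, 2 rose and none fell, beside 2.16% and 2.85% of all tested genes. The medians over PP1 were 1.0, -0.21 and 1.23 in PP2 replicates 1, 2 and 3. Replicate 2 was the lowest PP2 library in 32 of 33 matrix genes, against 44.1% of all tested protein-coding genes. The RNA median of the list was -0.56, with 13 genes lower and 3 higher. Of all genes tested in RNA, 10.6% were lower and 7.8% higher.

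The 30 genes of protein translocation into the endoplasmic reticulum had a fitted Ribo median log2 of 0.62, beside an RNA median of -0.29. In RNA, 5 of them were lower and none higher, beside 10.6% and 7.8% of all genes tested there. The difference between the assays was not tested for the list. In Ribo, replicate 2 again stood apart from the others. The medians over PP1 were 0.97, -0.05 and 0.87 in PP2 replicates 1, 2 and 3. Replicate 2 was the lowest PP2 library in 25 of 30, against 44.1% of all tested protein-coding genes. SPCS1, a subunit of the signal peptidase, rose from 27.2 and 31.6 CPM to 112, 52.6 and 99.5 CPM (log2 1.59 ± 0.39, edgeR adjusted p = 0.0442), and 29 did not pass. DDOST and RPN2, subunits of the oligosaccharyl transferase, had differences of 1.29 ± 0.46 (adjusted p = 0.127) and 1.07 ± 0.49 (adjusted p = 0.22). The share of MT-RNR2 had the reverse order, at 1.65%, 44.6% and 11.0% in the 3 PP2 libraries, and its part in these values was not tested. The calls of COL2A1, NID1 and SPCS1 were lost without either PP1 library, and those of NID1 and SPCS1 also without either DE library or PP2 replicate 3, and SPCS1 without PP2 replicate 1 (highest adjusted p 0.376).

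**Figure D4:**
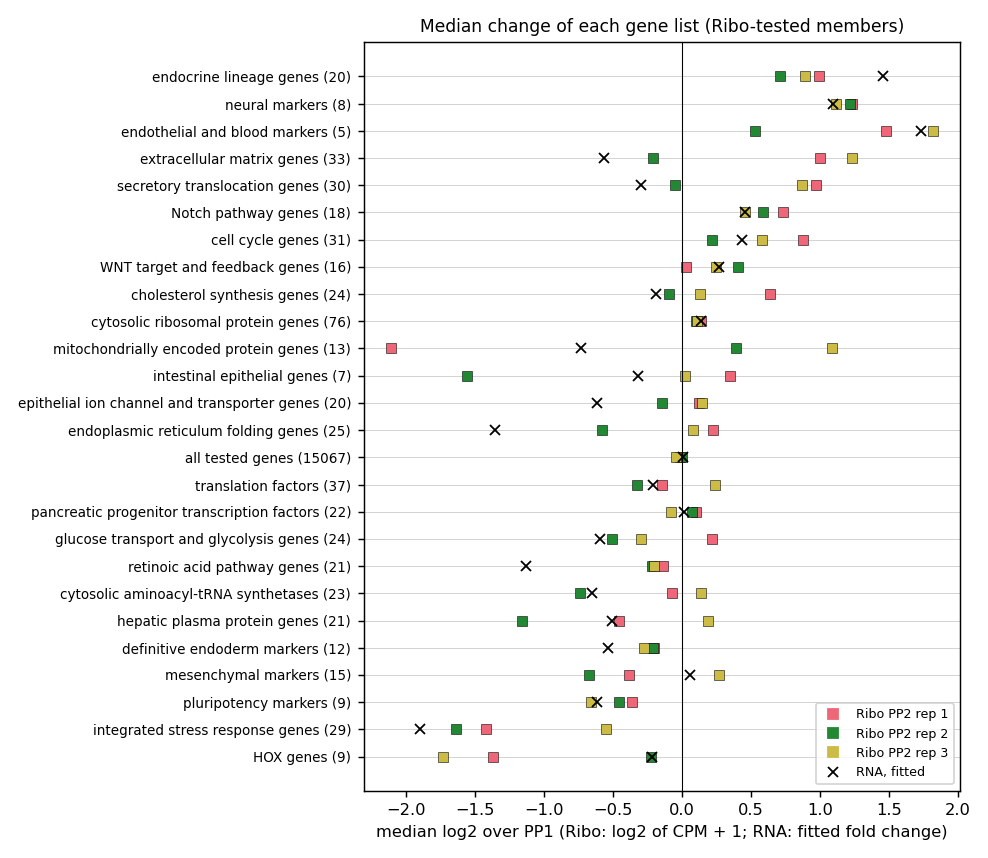
Rows are gene lists with the number of tested members; squares show the median log2 of each PP2 Ribo library over the PP1 mean, from CPM + 1, and crosses the median fitted RNA log2 fold change. The median squares lie together for ribosomal protein genes, at 0.14, 0.10 and 0.11, and apart for matrix genes, at 1.0, -0.21 and 1.23 in replicates 1, 2 and 3, and for mitochondrially encoded protein genes.

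Genes of the translation machinery itself gave no calls. None of 37 translation factors passed (median log2 0.0053) and none of 76 cytosolic ribosomal protein genes passed (median 0.24), beside 5.01% of all genes. The ribosomal protein medians were 0.14, 0.10 and 0.11 in PP2 replicates 1, 2 and 3, while the summed levels of the list were 6026, 5144 and 7827 CPM, against 4628 and 4982 CPM in PP1. None of the 13 mitochondrially encoded protein genes passed, and their medians over PP1 were -2.11, 0.39 and 1.08 in the 3 PP2 libraries.

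Growth and metabolism lists held few calls. CCND1, the cyclin of early G1 phase, rose from 23.1 and 23.2 CPM to 211, 140 and 153 CPM (log2 2.86 ± 0.38, edgeR adjusted p = 0.00383), and the other 30 cell cycle genes tested did not pass. PCNA, the sliding clamp of DNA replication, had 85.3 and 122 CPM in PP1 and 404, 179 and 287 CPM in PP2 (1.49 ± 0.45, adjusted p = 0.0826). Of 24 genes of glucose transport and glycolysis, PFKP (-1.66 ± 0.33, adjusted p = 0.0204), a phosphofructokinase, and PFKFB3 (-1.37 ± 0.31, adjusted p = 0.0326), which makes its activator, fell and none rose. None of 24 cholesterol synthesis genes passed, with a median of 0.27. Among all tested genes, 2.16% rose and 2.85% fell, with a median of 0.04. CCND1, PFKP and PFKFB3 lost their calls without either PP1 library, and PFKFB3 also without either DE library, PP2 replicate 1 or PP2 replicate 3 (highest adjusted p 0.378).

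Markers of other cell types were examined beside these lists. Summed CPM of the pluripotency markers was 189 and 186 in PP1 and 117 to 153 in PP2, L1TD1 fell (log2 -2.51 ± 0.38, edgeR adjusted p = 0.00607), and POU5F1, with 3 counts in PP1 and none in PP2, was too low to test. Of 12 definitive endoderm markers, CXCR4 and FRZB rose and SOX17 fell. Mesenchymal markers summed to 542 and 679 CPM in PP1 and 741, 302 and 1133 CPM in PP2, where MYL9 fell and 14 of 15 did not pass. Neural markers summed to 28.3 and 23.5 CPM in PP1 and 84.9, 58.3 and 79.0 CPM in PP2, where NCAM1 rose (2.65 ± 0.62, adjusted p = 0.0356), 7 of 8 did not pass, and 6 of 14 were too low to test. Neural and endocrine cells share granule genes, and the part of such cells in the endocrine values was not tested. Intestinal genes summed to 315 and 305 CPM in PP1 and 120 to 272 CPM in PP2, and endothelial and blood markers to 26.1 and 13.6 CPM in PP1 and 26.3 to 61.5 CPM in PP2, with no call in either. Median log2 was -0.72 for pluripotency, -0.32 for definitive endoderm, -0.33 for mesenchymal and 1.69 for neural markers. It was 0.09 over 7 tested intestinal genes and 1.51 over 5 tested endothelial and blood markers. Among all tested genes, 2.16% rose and 2.85% fell, with a median of 0.04. The 6 calls among these markers were lost without PP1 replicate 1, and all but that of L1TD1 also without PP1 replicate 2 (highest adjusted p 0.283). CXCR4, FRZB, MYL9 and NCAM1 lost theirs without PP2 replicate 3 as well, and MYL9 without DE replicate 1.

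The 15 largest falls of abundant protein-coding genes included enzymes, transporters and a WNT modulator. GPX2, a glutathione peroxidase of gut epithelium, fell from 28.3 and 36 CPM to 1.14, 1.29 and 1.66 CPM (log2 -4.55 ± 0.48, edgeR adjusted p = 0.00145). DACT1, a WNT pathway modulator, fell from 43.3 and 25.3 CPM to 2.01, 1.68 and 1.16 CPM (-4.38 ± 0.45, adjusted p = 0.00132). The PP2 values of both genes lay within 1 CPM of each other. NMRK2 (-4.78), a kinase of NAD synthesis, RENBP (-4.67), a renin-binding epimerase, the protease gene CAPN12 (-4.61) and GRAMD2A (-4.40) also kept their calls in every omission of 1 library. SOAT2 (-4.77), a cholesterol-esterifying enzyme, FTCD (-4.26), of histidine breakdown, coagulation factor F7 (-4.29) and the vitamin B12 receptor gene CUBN (-4.05) fell too, and each lost the call without PP1 replicate 1, F7 and CUBN also without PP1 replicate 2, and CUBN without PP2 replicate 3 (highest adjusted p 0.161). BPIFA1, an airway secreted protein, had 32.3 CPM in PP1 replicate 1, 0.581 CPM in PP1 replicate 2 and no count in PP2. Its PP1 libraries thus differed widely, and its call was lost without PP1 replicate 1 or PP2 replicate 3 (highest adjusted p 0.196).

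In 2 of the lowest genes, PP2 replicate 2 stood apart from the other PP2 libraries. SLC29A4, a monoamine transporter, had 786 and 558 CPM in PP1 and 16.9, 70.7 and 11.9 CPM in PP2 (log2 -4.35 ± 0.78, edgeR adjusted p = 0.013). Its RNA had 60.6 CPM in PP1 and 60.8 CPM in PP2 on average, a log2 change of 0.01 (adjusted p = 0.992). RP1, a photoreceptor gene too low in RNA to be tested there, had 1115 and 745 CPM in PP1 Ribo and 15, 116 and 24.4 CPM in PP2 Ribo (-4.17 ± 0.84, adjusted p = 0.0206). In both, replicate 2 was the highest PP2 library, as it was for MT-RNR2. Per 1000 counts of MT-RNR2, SLC29A4 had 0.871 and 0.707 counts in PP1 and 1.67, 0.170 and 0.146 counts in PP2, and the part of ribosomal RNA fragments in either gene was not tested. SLC29A4 lost its call without PP1 replicate 1 or PP2 replicate 3, and RP1 also without PP1 replicate 2 (highest adjusted p 0.141).

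Genes of microRNAs, short RNAs that silence messages through their seed (bases 2 to 8), were counted in the Ribo libraries as well. Of 136 tested, 30 were lower (22.1%, beside 2.85% of all genes) and none was higher, with a median log2 of -1.97. Other non-coding classes had medians below 0 as well, at -0.84 for 500 long non-coding RNAs, -0.89 for 85 snoRNAs, -0.98 for 11 snRNAs and -1.57 for 345 pseudogenes, against 0.12 for protein-coding genes. The shares lower were 3.8%, 5.88%, 18.2% and 4.06% in these 4 classes. In 23 of the 30 microRNA genes, replicate 2 was the highest PP2 library. Among other genes that passed as lower, so it was in 15 of 19 long non-coding RNAs, 4 of 5 snoRNAs and 2 of 2 snRNAs. For pseudogenes it was 10 of 14, and for protein-coding genes 164 of 326. Counts were per gene, so that the 2 arms of a hairpin were not told apart, and whether they came from ribosomes was not tested. Of the 30, 5 shared 1 seed, that of the miR-302 family known from pluripotent cells. RefSeq holds 12 mature microRNAs with this seed, and the genes of the other 7 had no count in these 5 libraries. The 5 that fell are shown to compare their shared start, with the seed in capitals.
miR-302a-3p: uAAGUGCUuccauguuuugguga
miR-302b-3p: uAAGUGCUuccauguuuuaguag
miR-302c-3p: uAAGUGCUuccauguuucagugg
miR-302d-3p: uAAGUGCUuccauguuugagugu
miR-373-3p: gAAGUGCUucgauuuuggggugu

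The miR-302 sequences lie on the minus strand of chr4:112648006-112648511, inside the span of LARP7 and of the long non-coding RNA gene MIR302CHG, and miR-373-3p lies at chr19:53788748-53788770 on the plus strand. MIR302A had 9537 and 8531 CPM in PP1 and 48.0, 562 and 61.5 CPM in PP2 (log2 -5.34 ± 1.15, edgeR adjusted p = 0.027). MIR302B, MIR302C and MIR302D changed by -4.69 ± 0.50, -5.77 ± 0.69 and -5.48 ± 0.72. MIR373 had 8.88 and 14.8 CPM in PP1 and 0, 0.129 and 0.144 CPM in PP2. Its pooled rate, in which PP2 replicate 1 with no count weighs most, was 238-fold lower. The exact 95% counting interval was 78.8 to 1178. Of all counts in microRNA genes, the miR-302 and miR-367 genes held 32.7% and 31.3% in PP1 and 2.25%, 5.20% and 1.08% in PP2, a share taken within 1 class of short RNA. For comparison, MIR27B fell by 2.84 (adjusted p = 0.0356), from 4662 and 3439 CPM to 201, 864 and 636 CPM. MIR302B, MIR302C, MIR302D and MIR373 kept their calls in every omission of 1 library, while MIR302A and MIR27B lost theirs without either PP1 library or PP2 replicate 3, and MIR27B also without either DE library (highest adjusted p 0.251).

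By mean CPM over the 3 PP2 libraries, the most abundant Ribo genes were MT-RNR2, RMRP, FN1, SERPINA1, DLK1, MT-RNR1, RNY1, MALAT1, AFP and APP. That order did not hold in every single library. RMRP, the RNA of a ribonuclease complex, had 55059 and 45463 CPM in PP1 and 4814, 33379 and 3977 CPM in PP2, and MALAT1, a nuclear long non-coding RNA, 14176 and 8006 CPM in PP1 and 743, 7455 and 6083 CPM in PP2. The Y RNA gene RNY1 had 668, 6661 and 13217 CPM in PP2, and its difference of -0.19 ± 1.11 changed sign without PP2 replicate 1 (0.35). None of these 3 passed in edgeR (adjusted p = 0.462, 0.542 and 0.944), and none of them encodes a protein. APP, the amyloid precursor, had 629 and 717 CPM in PP1 and 3564, 1539 and 4268 CPM in PP2 and did not pass (2.21 ± 0.66, adjusted p = 0.0785).

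Each PP2 library was also set against the PP1 mean without a test. At least 2-fold higher on the CPM + 1 scale were 2164, 1179 and 1794 genes in PP2 replicates 1, 2 and 3, and at least 2-fold lower were 3236, 1756 and 2529. Replicate 2 thus had the fewest genes past that size in each direction. Of the 321 protein-coding genes that passed as higher, 299 were at least 2-fold higher in all 3 PP2 libraries, and replicate 2 lay closest to PP1 in 262 (81.6%). Of the 326 that passed as lower, 316 were at least 2-fold lower in all 3, and replicate 2 lay closest to PP1 in 164 (50.3%). By gene model length, replicate 1 had a median over PP1 of 0.28 up to 2000 bases and -0.00 above 8000 bases. The same medians were -0.16 and 0.03 in replicate 2, and 0.01 and 0.11 in replicate 3.

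The RNA libraries of the same stages gave a second readout of the genes. There, 4533 of 24603 tested genes passed (18.4%), with 1918 higher (7.8%) and 2615 lower (10.6%). With only protein-coding genes tested and counted the split was 2183 higher and 1951 lower. The RNA calls numbered 9984 without PP2 RNA replicate 3, in which mitochondrial protein genes held 0.95% of counts against 3.34% and 3.74% in the other PP2 RNA libraries, and 1210 and 1376 without PP1 RNA replicates 1 and 2. Of the 321 protein-coding genes higher in Ribo, 320 were tested in RNA, 313 had the same sign and 220 (68.8%) passed as higher. Of the 326 lower in Ribo, 307 were tested in RNA, 290 had the same sign and 249 (81.1%) passed as lower. Conversely, in the RNA fit of all genes, 1242 protein-coding genes tested in each assay were higher and 1904 were lower. Those 220 were 17.7% of the 1242, and those 249 were 13.1% of the 1904. Across 12805 protein-coding genes, which are not independent replicates, the log2 changes had a Pearson r of 0.633 and a Spearman rho of 0.580.

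**Figure D5:**
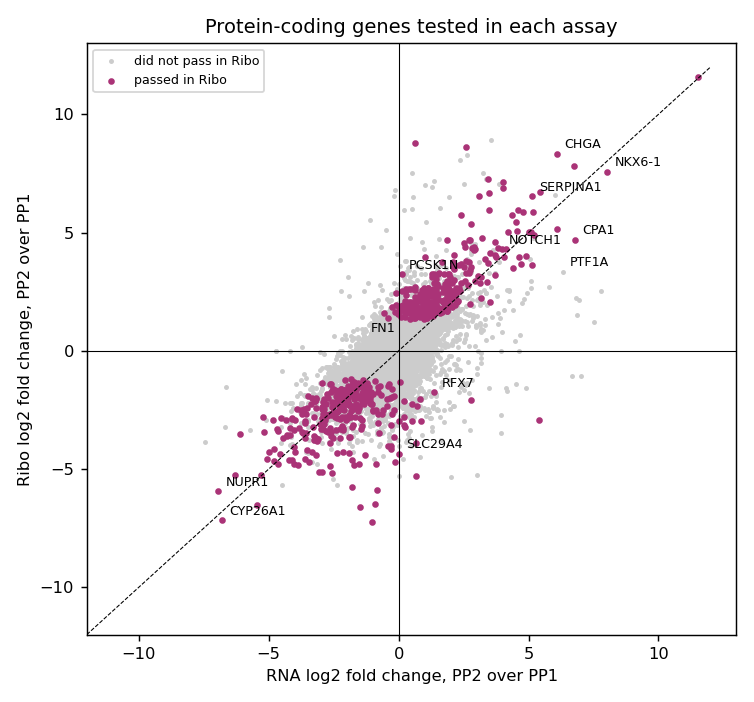
Each point is 1 of 12805 protein-coding genes tested in each assay, with the RNA log2 fold change of PP2 over PP1 on the horizontal axis and the Ribo log2 fold change on the vertical axis; the dashed line marks equal change. Of the purple genes, which passed in Ribo, 313 higher and 290 lower genes have the same sign in RNA, while SLC29A4 lies at -4.35 in Ribo and 0.01 in RNA.

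Calls in opposite directions in the 2 assays were found for 3 protein-coding genes. FBXO15, RFX7 and ZNF397, named for that reason, were lower in Ribo and higher in RNA. RFX7, a transcription factor gene, had 131 and 90 CPM in PP1 Ribo and 19.8, 49.1 and 30.1 CPM in PP2 Ribo (log2 -1.75 ± 0.43, edgeR adjusted p = 0.0428), beside an RNA rise from 27.5 to 71.5 CPM on average (1.38, adjusted p = 0.0178). All 3 lost the Ribo call without either PP1 library, either DE library or PP2 replicate 3, and FBXO15 and RFX7 also without PP2 replicate 1 (highest adjusted p 0.384). Of the 326 lower genes, 32 (9.82%) had RNA under 1 CPM or too low to test, against 3.89% of all tested protein-coding genes.

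A test of the Ribo change minus the RNA change, here called translation efficiency (TE), passed for 11 of 14152 genes (0.0777%), all lower. Of these, 6 had at least 10 CPM in each assay. COL9A1, a collagen gene, had a Ribo change of -0.37 and an RNA change of 2.29, and a TE change of -2.83 in the joint fit, which was made apart from the fits of the single assays (edgeR adjusted p = 0.0128). The others named by rank were C5orf34 (-3.99, adjusted p = 0.0293), MRPL46 (-3.65, adjusted p = 0.0384), a mitochondrial ribosomal protein gene, RFX7 (-3.29, adjusted p = 0.0463) and TCF4 (-3.13, adjusted p = 0.0457), a basic helix-loop-helix factor. No gene passed when only PP1 and PP2 libraries were fitted (1143 at an unadjusted p under 0.05), 1110 passed without PP2 Ribo replicate 2, and 0 to 6 passed without any other single library.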

How the data were processed

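RNA and Ribo libraries of HUES8 cells were analysed from 1 table in which the authors deposited raw counts per gene symbol, with a gene model length in bases as another deposited column. Per the submitters' processing notes, cutadapt 1.18, Bowtie 1.2, STAR 2.7.1a and featureCounts 1.6.4 were used with hg38 (GRCh38). The sources used here give no order of steps and no strand setting, and do not say which gene parts were counted, so that overlapping, antisense and near-identical genes are uncertain. Libraries were grouped by their labels, and none was left out.

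Each assay was fitted over its 7 libraries in edgeR 4.0.16 (R 4.3.3) with filterByExpr, TMM and the quasi-likelihood F test, with Benjamini-Hochberg adjustment over all tested genes and a threshold of 0.05. The standard error is the log2 change over the root of F. TE was the interaction over all 14 libraries. An exact permutation test of 2 against 3 libraries cannot give a p below 0.1. Precision follows depth, from 4710335 counts in the shallowest of the 5 Ribo libraries to 24186949 in the deepest, and counting intervals cover counting error only. Alternatives were other normalizations, filters, tools (limma 3.58.1 voom with sample quality weights, DESeq2 1.42.0) and omissions of libraries.

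The 26 gene lists (625 memberships, 624 found under a current or older symbol) and the comparison were chosen with earlier results of these data known. Named genes are list members, the 15 highest and 15 lowest changes among protein-coding genes past the threshold with a stage mean of 10 CPM or more and stages whose libraries do not overlap, the 10 most abundant in PP2, and the TE genes with at least 10 CPM in each assay; some genes the rule names are not reported here. Biotypes, positions and microRNA sequences came from RefSeq GRCh38.p14, where 36273 of 59050 symbols matched directly and 980 through an older symbol, and 127 of 136 microRNA genes had a mature sequence. Classes by protein sequence were planned, and gene model length was used in their place.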

Additional observations from a re-analysis of the deposited data

How the results depend on the processing

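Where limma voom is named below, it was run with sample quality weights. The number of Ribo genes that passed was 750 with DESeq2's size factors, 1111 with protein-coding genes alone, 591 with a mean of at least 50 counts and 513 with PP1 and PP2 libraries alone. It was 1772 with no low-count filter, 1597 with DESeq2's Wald test and 4175 with limma voom, and the omission of 1 library gave 58 to 3474. RNA calls were 9600 with limma voom and 1210 to 9984 with 1 library omitted. TE calls were 615 with no filter, 4 with a mean of at least 50 counts, 243 with DESeq2's Wald test, 1856 with limma voom, 0 with PP1 and PP2 alone, 0 with PP2 replicates 1 and 3 left out, and 0 to 1110 with 1 library omitted. Leaving out the filter moved the median log2 of the Ribo genes by 0.28 and the higher filter by -0.18, and the TE median moved by 0.29 with no filter.

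PP1 and PP2 libraries shared only the numbers 1 and 2, and the deviations of same-numbered libraries had correlations of -0.192 and -0.171 across genes. With the replicate block the calls were 201 for Ribo, 9758 for RNA and 3 for TE, and the log2 difference of FN1 was -0.24. The cause of these changes was not tested.

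With a pseudocount of 5 CPM, genes at least 2-fold higher were 1376, 439 and 1141 and lower 1393, 726 and 1004 in PP2 replicates 1, 2 and 3. Signs changed for genes that had not passed. DHRS3 was 0.13 and RNY1 0.0047 with no filter, and RNY1 was 0.051 with limma voom. With 1 library omitted, DHRS3 ranged from -0.29 to 0.0019, FN1 from -0.019 to 1.01 and RNY1 from -1.09 to 0.35. With PP2 replicates 1 and 3 left out, ALB was -0.27, MT-RNR1 0.082 and FN1 -1.32. Of 83 named Ribo calls, 20 held under each of the 7 omissions of 1 library, and 72 held with PP2 replicate 2 as the only PP2 library. The fitted change of a named Ribo call did not change sign in any omission of 1 library. An omission that left 1 PP1 or PP2 library assumes that it varies like the other groups. Depth limits NEUROG3, INS and other genes of few counts.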
